A study of Mus musculus with 6 samples.

Results

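Aminoacyl-tRNA synthetases attach each amino acid to its transfer RNA (tRNA), the step that supplies the ribosome with charged tRNA. The 36 genes described here comprise 20 that encode cytosolic synthetases, or subunits of them, and 16 that encode the separate mitochondrial enzymes, whose symbols end in 2. They were chosen by symbol from the 24956 rows of the expression table, and all 36 were found. The measurement was RNA-seq of mouse intestinal organoids, cultured epithelium that forms crypt-like and villus-like domains, of the Apc Min genotype. Apc Min is a truncating allele of the tumour suppressor Apc, and organoids of both groups carried it. Organoids in low glutamine medium (3 libraries) were set against organoids in control medium (3 libraries), and the samples of a group were called biological replicates by the submitters. No source used here gives the glutamine concentration, the length of the treatment, the animals or the gut region. Without knowing whether replicates were separate animals or separate cultures, p-values measure only the spread between these samples.

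All of these enzymes are made from nuclear genes, and the mitochondrial ones are imported into the organelle. Gars and Kars each encode a cytosolic and a mitochondrial form, so glycine and lysine have no separate mitochondrial gene. Glutamine has none either: in mitochondria its tRNA is first charged with glutamate and then amidated by the complex of Gatb, Gatc and Qrsl1. Several cytosolic synthetases form the multisynthetase complex, held together by the scaffold proteins Aimp1, Aimp2 and Eef1e1. When amino acids run short, uncharged tRNA activates the kinase GCN2 (Eif2ak4), which raises translation of the transcription factor ATF4. Genes of cytosolic synthetases are among the known targets of ATF4.

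The estimated depth of the libraries was 24.4 to 35.3 reads per kilobase of transcript at 1 RPKM, and the values are RPKM, read counts scaled to transcript length and library size. That estimate is rough, as it rests on the step size of low values. Of 11082 genes tested with limma, 66.4% passed an adjusted p of 0.05, 36.1% as higher and 30.3% as lower in low glutamine. The 8 epithelial markers summed to 2488 to 2571 RPKM in low glutamine libraries and 2006 to 2180 RPKM in control libraries, but the list split, with 4 genes up and 4 down. Krt18 averaged 573 RPKM in low glutamine and 233 RPKM in control, while Krt19, Vil1, Cdx1 and Cdx2 had log2 fold changes of -0.50, -0.52, -0.58 and -0.56. The 12 markers of stromal, endothelial, glial and immune cells summed to at most 0.938 RPKM in low glutamine and 0.539 RPKM in control libraries, and the fibroblast gene Col3a1 and the macrophage gene Adgre1 were listed at 0 in all 6. The enterocyte gene Sis measured 38.5 to 41.9 RPKM in low glutamine and 414 to 436 RPKM in control, while the stem cell receptor Lgr5 measured 111 to 118 RPKM in low glutamine and 41.4 to 43.7 RPKM in control. In bulk RNA, a different mix of cell types and a different level per cell cannot be told apart. Sex-linked RNA separated low glutamine from control libraries: Xist stood at 0.0237 to 0.0350 RPKM in low glutamine and 83.1 to 90.5 RPKM in control, and the Y-linked Eif2s3y at 25.2 to 31.4 RPKM in low glutamine and 0 in every control library. The medium therefore cannot be told apart from a difference in the sex of the source animals, and this holds for every comparison given here.

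Cytosolic synthetase genes went in both directions in low glutamine, and the changes were small. Vars, Lars, Kars, Tars, Hars, Farsb, Yars, Gars and Iars rose, and Sars, Nars and Qars fell. Of 20 genes, 9 (45%) rose and 3 (15%) fell, where 36.1% and 30.3% of all tested genes did. Their median log2 fold change was 0.13, against 0.03 for all tested genes, and single genes ran from -0.44 to 0.59. All 36 members passed the filter of a mean of 1 RPKM over the 6 libraries. In 11 cytosolic genes every low glutamine value exceeded every control value and in 4 every value was lower, together 15 of 20, where the groups did not overlap for 70.2% of all tested genes. The cytosolic median was 0.072 without low glutamine replicate 3, and 15 cytosolic genes rose when each library was rescaled to a common RPKM sum. With that sum 51.3% of all tested genes rose and 22.9% fell.

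Valine and leucine enzymes showed the largest rises among the cytosolic genes. Vars, valyl-tRNA synthetase (chromosome 17, 35000907 to 35016329), measured 53.3, 52.9 and 51.9 RPKM in low glutamine libraries and 36.3, 36.5 and 31.6 RPKM in control libraries. The 3 low glutamine values lay close together and far above every control value. The log2 fold change was 0.59 ± 0.06 (SE, limma adjusted p = 3.9e-06), a 1.51-fold difference in the means. Lars, leucyl-tRNA synthetase (chromosome 18, 42202298 to 42262237), measured 32.4, 31.4 and 35.6 RPKM in low glutamine and 23.5, 22.8 and 24.2 RPKM in control. Its groups did not overlap either, and it rose by 0.48 ± 0.06 (adjusted p = 1.6e-05). Lars also acts as a leucine sensor for mTORC1, the kinase complex that couples nutrients to growth.

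Lysine and threonine enzymes followed. Kars, which serves lysine in both compartments (chromosome 8, 111993439 to 112011354), measured 56.6, 54.9 and 64.0 RPKM in low glutamine and 46.3, 45.7 and 48.9 RPKM in control. It was higher in 3 of 3 libraries, by 0.31 ± 0.06 (adjusted p = 0.0011). Tars, threonyl-tRNA synthetase (chromosome 15, 11383663 to 11399658), measured 53.2, 50.5 and 59.7 RPKM in low glutamine and 46.4, 45.6 and 47.1 RPKM in control. Its rise was 0.22 ± 0.06 (adjusted p = 0.0085). Gars, the glycyl enzyme of both compartments (chromosome 6, 55038001 to 55079504), measured 102, 99.8 and 107 RPKM in low glutamine and 92.3, 92.5 and 88.1 RPKM in control, a rise of 0.18 ± 0.06 (adjusted p = 0.014). Both genes that serve 2 compartments were therefore past the test as higher. Hars, Farsb and Yars rose by 0.22, 0.21 and 0.19, with no overlap between groups. They charge histidine, phenylalanine (as the beta subunit) and tyrosine. Iars, the isoleucine enzyme, averaged 48.8 ± 2.03 RPKM in low glutamine and 43.7 ± 0.909 RPKM in control (SD, n = 3 each) and rose by 0.16 (adjusted p = 0.022). The Iars call was lost without low glutamine replicate 1, control replicate 2 or control replicate 3, with an adjusted p of up to 0.078.

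The 3 cytosolic genes that fell charge serine, asparagine and glutamine. Sars, seryl-tRNA synthetase (chromosome 3, 108424864 to 108445259), measured 36.3, 34.9 and 40.02 RPKM in low glutamine and 49.1, 50.3 and 52.0 RPKM in control. No low glutamine value came within the control range, and the log2 fold change was -0.44 ± 0.06 (adjusted p = 4.3e-05). Nars, asparaginyl-tRNA synthetase (chromosome 18, 64499655 to 64516515), measured 104, 97.0 and 117 RPKM in low glutamine and 135, 132 and 139 RPKM in control (-0.35 ± 0.07, adjusted p = 7.6e-04). It did not pass after quantile normalization (adjusted p = 0.052), against an adjusted p of 0.0089 or less in the other settings tried. Qars, glutaminyl-tRNA synthetase (chromosome 9, 108508005 to 108515941), measured 54.2, 52.4 and 61.6 RPKM in low glutamine and 67.4, 66.7 and 67.1 RPKM in control. The 3 control values of Qars were nearly the same, and all low glutamine values lay below them (-0.26 ± 0.06, adjusted p = 0.0036).

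**Figure D1:**
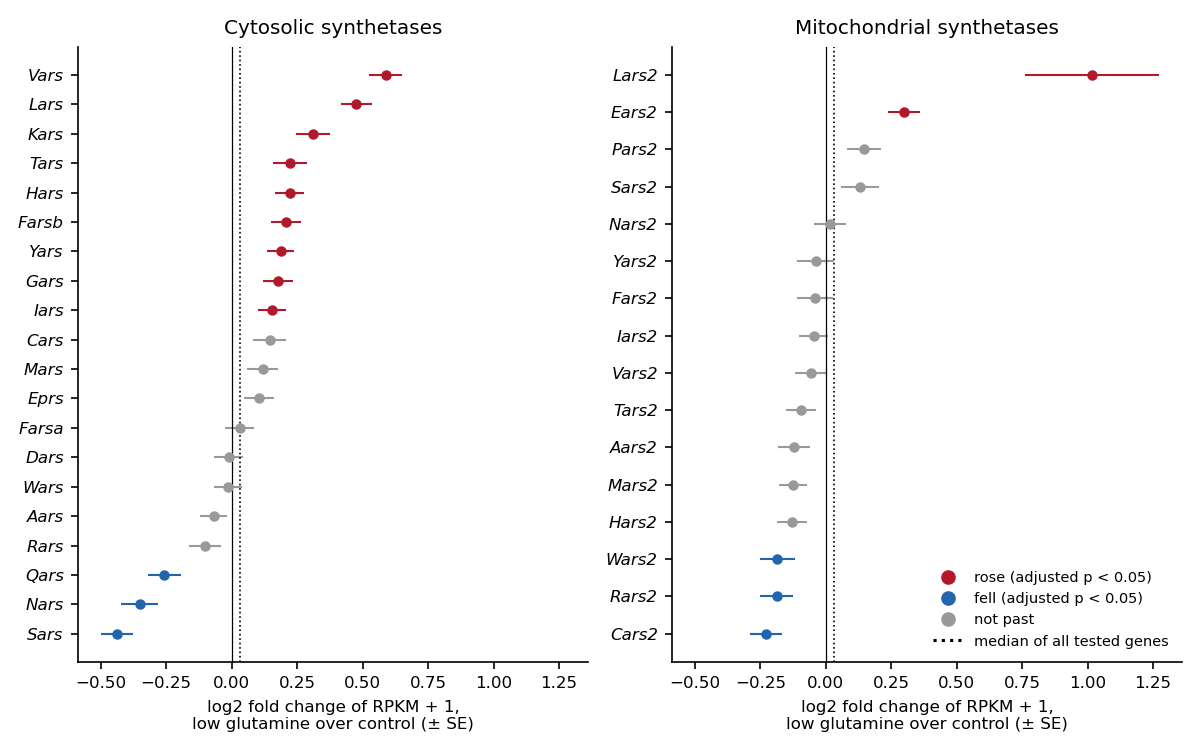
Log2 fold change of RPKM + 1 (horizontal axis, low glutamine over control, point with SE bar) for each cytosolic gene (left) and mitochondrial gene (right), ordered by size. Red marks genes that rose, blue genes that fell, grey genes that did not pass. The dotted line is the median of all tested genes, 0.03. Cytosolic genes run from -0.44 to 0.59, and the mitochondrial genes other than Lars2 and Ears2 lie between -0.23 and 0.15.

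The other 8 cytosolic genes did not pass. Wars, Dars and Farsa, for tryptophan, aspartate and the alpha subunit of the phenylalanine enzyme, had log2 fold changes of -0.01, -0.01 and 0.03. Their 95% intervals were -0.13 to 0.10, -0.13 to 0.11 and -0.09 to 0.15. Aars, the alanine enzyme, averaged 39.5 ± 1.07 RPKM in low glutamine and 41.4 ± 0.639 RPKM in control (-0.07, interval -0.18 to 0.04), and Rars, the arginine enzyme, 68.4 ± 4.83 RPKM in low glutamine and 73.4 ± 0.474 RPKM in control (-0.10, interval -0.23 to 0.03). Eprs, a fused enzyme for glutamate and proline, and Mars, for methionine, had log2 fold changes of 0.10 and 0.12. Cars, for cysteine, measured 20.6, 19.4 and 23.2 RPKM in low glutamine and 18.97, 18.9 and 18.8 RPKM in control (0.15 ± 0.06, adjusted p = 0.061). Cars passed as higher when replicate number was a block (adjusted p = 0.030), a fit whose p-values can be far too small. It passed with robust variance shrinkage as well (0.046). It also passed with the common sum, with quantile normalization and without low glutamine replicate 2, at log2 fold changes of 0.27, 0.21 and 0.20. Its log2 fold change was 0.076 without low glutamine replicate 3. The phenylalanine enzyme is built from both subunits, and its beta subunit gene Farsb passed as higher while its alpha subunit gene Farsa did not. The difference between these 2 genes was not tested.

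By catalytic class, the counts were as follows. Of the 9 cytosolic genes of class I enzymes, 4 rose and 1 fell (median 0.15). Of the 10 genes of class II enzymes, which include both phenylalanine subunits, 5 rose and 2 fell (median 0.10). The shares that rose, 44.4% and 50%, stand beside 36.1% of all tested genes, and the shares that fell, 11.1% and 20%, beside 30.3%. Eprs joins an enzyme of each class and was counted in neither. Among the 8 synthetases of the multisynthetase complex, Lars, Kars and Iars rose, Qars fell, and Eprs, Dars, Mars and Rars did not pass. The 37.5% that rose is near the 36.1% of all tested genes, and 12.5% fell, against 30.3%. The scaffolds of this complex did not pass: Aimp1 averaged 45.4 RPKM in low glutamine and 48.9 RPKM in control, Aimp2 23.1 RPKM in low glutamine and 25.3 RPKM in control, and Eef1e1 25.3 RPKM in low glutamine and 25.8 RPKM in control.

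Summed over the 20 cytosolic genes, the RPKM came to 924, 889 and 993 in low glutamine libraries and 919, 909 and 908 in control libraries. The sums of the groups overlapped, while single genes moved in both directions. RPKM is scaled to length, so levels can also be ordered between genes. Nars was the highest cytosolic gene in both groups, but its low glutamine range, 97.0 to 117 RPKM, overlapped that of Gars, 99.8 to 107 RPKM. In control libraries the same genes lay apart, at 132 to 139 and 88.1 to 92.5 RPKM. Sars took rank 13 of 20 in low glutamine and rank 5 in control, and Vars rank 7 in low glutamine and rank 14 in control. The lowest levels in both groups were those of Cars and Farsa, which overlapped.

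**Figure D2:**
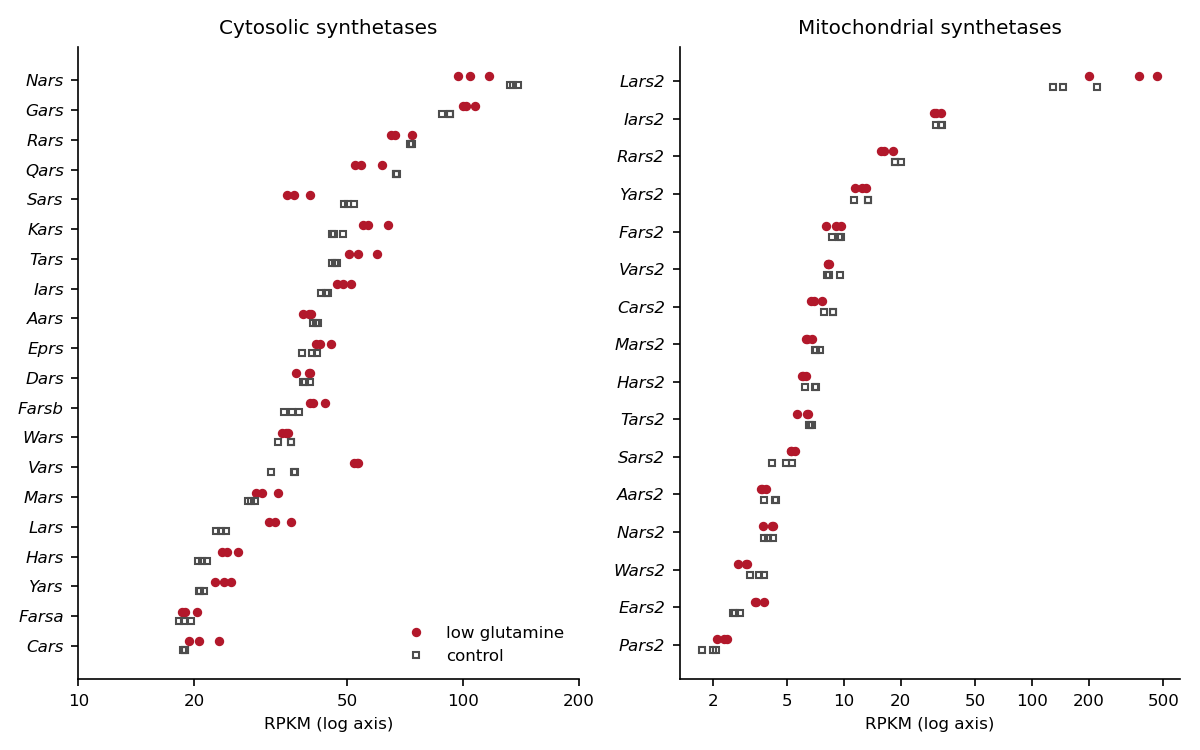
RPKM of each synthetase gene in each library on a log axis (red circles, low glutamine; open squares, control; 3 points each), cytosolic genes left and mitochondrial genes right, ordered by the control mean. Sars, Nars and Qars lie left of their control points and Vars and Lars right of them. The mitochondrial genes other than Lars2 stay between 1.76 and 33.4 RPKM.

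ATF4 binds a composite C/EBP-ATF element at its target genes, whose core can be written TGATGNAA. These letters were searched on both strands in RefSeq promoter windows of GRCm38.p6, the assembly mm10 names, from 250 bases before to 50 after an annotated start. A window was matched for 27 members, 13 cytosolic and 14 mitochondrial. The letters occurred in 5 of 13 cytosolic genes (38.5%) and 0 of 14 mitochondrial genes, and in 224 of 8785 tested genes with a window (2.55%). The 5 were Aars, Gars, Iars, Tars and Yars, with 2 matches in the Aars window and 1 in each of the others. Gars, Iars, Tars and Yars rose and Aars did not pass. Of the 8 cytosolic genes with a window and no match, 2 rose, 2 fell and 4 did not pass. Cars, Hars, Lars, Nars, Rars, Vars and Wars had no window and were not searched. Among them Vars, Lars and Hars rose, Nars fell, and Cars, Rars and Wars did not pass. The counts with and without a match therefore cover only part of the cytosolic genes. Across all 224 tested genes with a match, 42.0% rose and 31.2% fell. With the narrower letters TGATGCAA the matches were in 4 cytosolic genes, 0 mitochondrial genes and 0.729% of tested genes. A match is a description of letters in the window and does not show that a factor binds there.

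The windows of the 4 genes that hold TGATGCAA are shown because they hold the letters found in cytosolic and not in mitochondrial windows. Capitals mark each match to TGATGNAA or to its reverse complement. They lie at chr8:111033592-111033891 (plus strand) for Aars, chr13:49681880-49682179 (plus strand) for Iars, chr15:11399609-11399908 (minus strand) for Tars and chr4:129189653-129189952 (plus strand) for Yars, each written in the direction of its gene.
Aars: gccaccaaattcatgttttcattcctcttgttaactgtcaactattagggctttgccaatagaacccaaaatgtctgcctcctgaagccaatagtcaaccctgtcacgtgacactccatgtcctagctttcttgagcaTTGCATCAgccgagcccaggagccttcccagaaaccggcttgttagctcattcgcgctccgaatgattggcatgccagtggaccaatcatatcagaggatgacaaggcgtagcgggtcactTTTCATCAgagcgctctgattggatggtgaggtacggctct
Iars: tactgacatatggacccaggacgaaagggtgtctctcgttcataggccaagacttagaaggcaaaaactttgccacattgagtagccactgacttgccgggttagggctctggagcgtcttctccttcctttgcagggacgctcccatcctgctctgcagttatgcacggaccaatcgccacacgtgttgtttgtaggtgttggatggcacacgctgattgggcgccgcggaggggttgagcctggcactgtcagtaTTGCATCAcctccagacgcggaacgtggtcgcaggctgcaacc
Tars: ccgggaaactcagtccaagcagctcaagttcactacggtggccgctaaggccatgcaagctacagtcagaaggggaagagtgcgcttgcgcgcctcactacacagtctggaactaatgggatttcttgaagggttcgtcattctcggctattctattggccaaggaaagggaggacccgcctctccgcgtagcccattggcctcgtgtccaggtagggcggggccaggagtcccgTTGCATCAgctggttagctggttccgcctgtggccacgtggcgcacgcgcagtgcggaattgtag
Yars: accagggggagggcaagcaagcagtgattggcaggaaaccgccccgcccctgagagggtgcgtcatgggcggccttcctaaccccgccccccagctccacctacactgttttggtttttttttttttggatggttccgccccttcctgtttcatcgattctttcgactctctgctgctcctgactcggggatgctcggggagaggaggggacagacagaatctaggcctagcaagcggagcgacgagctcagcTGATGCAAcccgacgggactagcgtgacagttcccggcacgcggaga

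Counted from the annotated start, the matches begin at position 8 in Iars, 4 in Yars and -15 in Tars, all near the start, and at -112 and 10 in Aars. The Gars match begins at -30.

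Most mitochondrial synthetase genes did not pass. Ears2 and, with overlapping groups, Lars2 were past the test as higher, and Cars2, Rars2 and Wars2 as lower. Of 16 genes, 2 (12.5%) rose and 3 (18.8%) fell, together 31.2%, where 66.4% of all tested genes passed. Among tested genes within the same range of mean level as the mitochondrial members other than Lars2, 2.10 to 31.8 RPKM, 65.4% passed, and within the range of the cytosolic members 67% passed. The median log2 fold change of the 16 was -0.05. The count that fell was 1 without low glutamine replicate 1 or without control replicate 1, and 5 without control replicate 3. In these fits 27.6%, 26.4% and 30.9% of all tested genes fell. With rescaling to a common sum 4 rose and 0 fell, where 51.3% and 22.9% of all tested genes did. With median-of-ratios scaling or quantile normalization 7 fell, where 35.6% and 32.8% of all tested genes fell.

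Ears2, mitochondrial glutamyl-tRNA synthetase (chromosome 7, 122034162 to 122067094), measured 3.77, 3.38 and 3.37 RPKM in low glutamine and 2.63, 2.78 and 2.57 RPKM in control. All 3 low glutamine values lay above the control range, and it rose by 0.30 ± 0.06 (limma adjusted p = 8.6e-04). This enzyme charges the mitochondrial tRNAs of both glutamate and glutamine. Of the amidotransferase genes, Qrsl1 fell, averaging 4.07 ± 0.168 RPKM in low glutamine and 4.74 ± 0.169 RPKM in control (-0.18, adjusted p = 0.013). Gatb and Gatc did not pass, at 4.30 and 15.6 RPKM in low glutamine and 4.81 and 17.1 RPKM in control.

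Cars2, the cysteine enzyme of mitochondria (chromosome 8, 11514017 to 11550781), measured 6.92, 6.63 and 7.59 RPKM in low glutamine and 8.69, 8.73 and 7.86 RPKM in control. Its groups did not overlap, and it fell by 0.23 on the log2 scale (SE 0.06, adjusted p = 0.0062). Rars2, for arginine (chromosome 4, 34614957 to 34660167), measured 16.2, 15.7 and 18.3 RPKM in low glutamine and 20.2, 18.6 and 18.8 RPKM in control (-0.19 ± 0.06, adjusted p = 0.020). Wars2, for tryptophan (chromosome 3, 99140107 to 99221230), measured 2.74, 3.02 and 3.04 RPKM in low glutamine and 3.73, 3.55 and 3.15 RPKM in control (-0.19 ± 0.07, adjusted p = 0.025). In both genes the nearest values of the groups were close together. The Rars2 call was lost without low glutamine replicate 1 or 2 or control replicate 1 (adjusted p up to 0.091). The Wars2 call was lost without low glutamine replicate 1 or control replicate 1 or 2 (up to 0.11). Over all 13 settings of scaling, filter, pseudocount, block and library left out, Rars2 and Wars2 each kept the call in 8. The limma adjusted p reached 0.23 for Rars2 and 0.20 for Wars2. Cars2 kept its call in 12 of the 13 (adjusted p up to 0.0515).

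Lars2, mitochondrial leucyl-tRNA synthetase (chromosome 9, 123366927 to 123462675), had the largest fold change and the widest spread of the 36 genes. It measured 373, 465 and 202 RPKM in low glutamine and 146, 129 and 222 RPKM in control. Low glutamine replicate 3 lay below control replicate 3, so the groups overlapped. The log2 fold change was 1.02 ± 0.26 (limma adjusted p = 0.0039). That p rests on a spread that limma drew towards other genes of like level: the SD of Lars2 within groups was 0.527 on the log2 scale and the SD used was 0.314. With robust variance shrinkage, which leaves a widely spread gene more of its own spread, the SD used was 0.516 and Lars2 did not pass (adjusted p = 0.099). It did not pass without a filter on low values either (SD used 0.441, adjusted p = 0.063). Whether the Lars2 call holds thus depends on how far its spread is drawn towards that of other genes. An exact permutation test of the 6 libraries gave a two-sided p of 0.2, but with 3 against 3 it cannot go below 0.10, so it does not bear on the call. Rn45s, the precursor of ribosomal RNA, measured 9778, 12252 and 6788 RPKM in the low glutamine libraries and 1898, 2074 and 6680 RPKM in the control libraries, in the same replicate order. The library with the most Rn45s in each group also had the most Lars2, and the replicate 3 libraries were close to each other in both genes. The part of Rn45s in the Lars2 values was not tested. Without Lars2, 1 mitochondrial gene rose, 3 fell, and the median was -0.06.

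**Figure D3:**
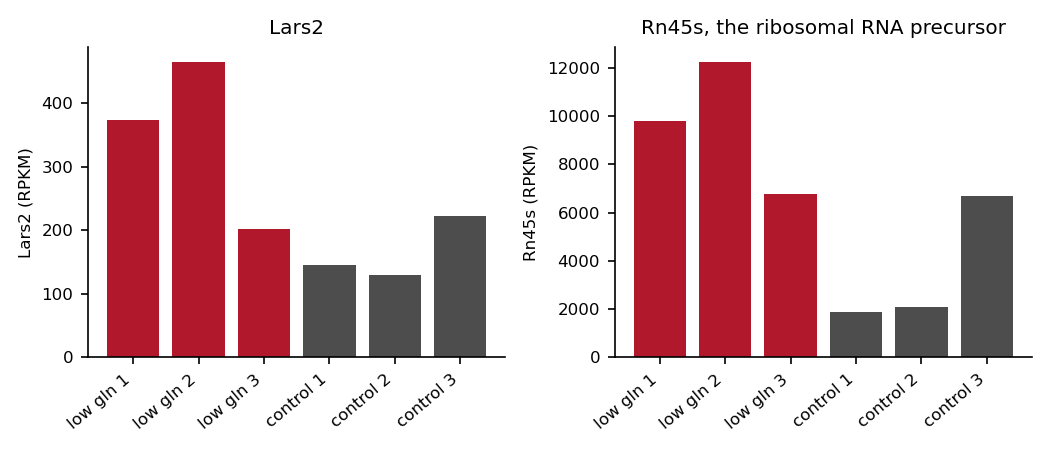
Bars give the RPKM of Lars2 (left) and of the ribosomal RNA precursor Rn45s (right) in each library, low glutamine replicates 1 to 3 in red and control replicates 1 to 3 in grey. Control replicate 3 stands above the other control libraries in both genes, at 222 RPKM for Lars2 and 6680 RPKM for Rn45s.

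The other 11 mitochondrial genes did not pass. Nars2, Yars2, Fars2, Iars2 and Vars2, for asparagine, tyrosine, phenylalanine, isoleucine and valine, had log2 fold changes of 0.01, -0.04, -0.04, -0.05 and -0.06. Tars2, Aars2, Mars2 and Hars2, for threonine, alanine, methionine and histidine, lay at -0.09, -0.12, -0.13 and -0.13, with adjusted p of 0.17, 0.10, 0.056 and 0.068. Pars2 and Sars2, for proline and serine, lay at 0.15 and 0.13 with intervals of 0.00 to 0.29 and -0.03 to 0.29. Mars2 measured 6.30, 6.38 and 6.78 RPKM in low glutamine and 7.06, 7.49 and 6.96 RPKM in control, with no overlap, although it missed the threshold. Tars2 (lower) and Pars2 (higher) also missed it without overlap. In all, 2 mitochondrial genes were higher and 5 lower without overlap, against 38.9% and 31.3% of all tested genes.

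**Figure D4:**
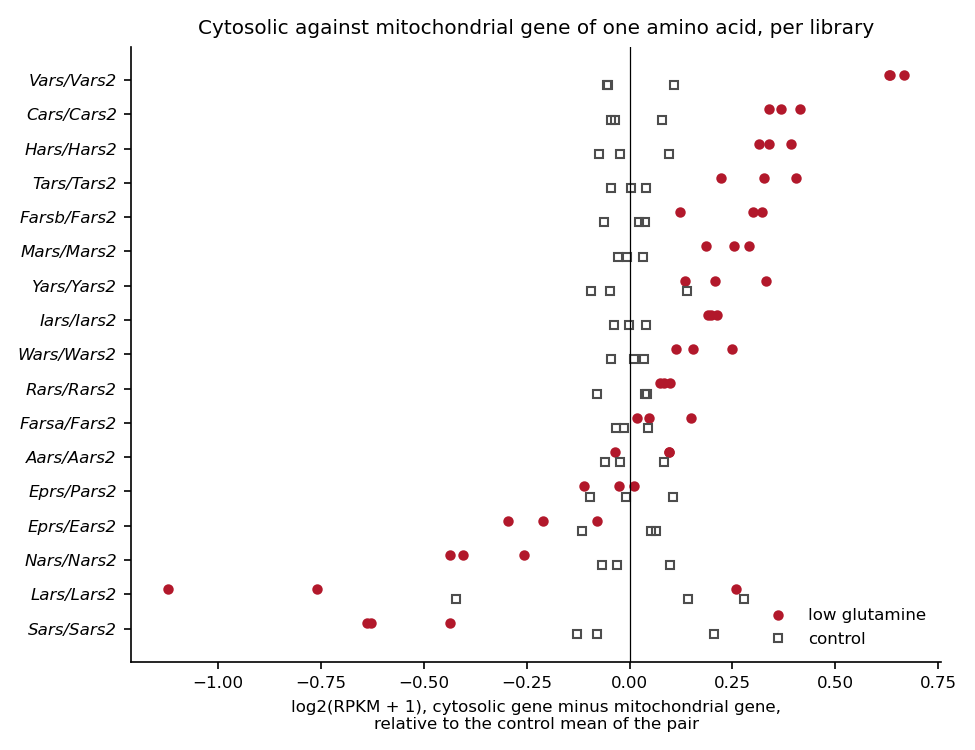
Log2(RPKM + 1) of the cytosolic gene minus that of the mitochondrial gene of the same amino acid (horizontal axis), relative to the control mean of the pair. Red circles are the 3 low glutamine libraries and open squares the 3 control libraries. In 9 pairs all low glutamine points lie right of the control points, led by Vars/Vars2 at 0.64, and in Nars/Nars2 and Sars/Sars2 they lie left of them.

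The cytosolic gene was set against the mitochondrial gene of the same amino acid in every library, as a difference of log2(RPKM + 1). A factor that scales both genes alike cancels only in part for low genes, because of the pseudocount. Eprs stood in 2 pairs and Fars2 in 2, which gave 17 pairs. The log2 difference was larger in low glutamine for 12 of them, with a median shift of 0.17. In 9 pairs every low glutamine value exceeded every control value, in 2 pairs every value was lower, and in 6 the groups overlapped. For single genes, 38.9% of all tested genes were higher and 31.3% lower without overlap. Within same-numbered libraries, 14 of the 17 pairs differed in one direction in all 3 numbers, 11 higher and 3 lower. These include Aars/Aars2, Yars/Yars2 and Eprs/Ears2 among the 6 that overlapped. For single genes this share was not computed, but it includes the 70.2% of all tested genes whose groups did not overlap. An exact sign-flip permutation test of 3 numbers cannot go below p = 0.25. Pairs that share a gene are not independent of each other. An exact permutation test of 3 against 3 libraries cannot go below p = 0.10, which each of the 11 pairs without overlap reached, and the two-sided p adjusted over the 17 pairs was 0.15 at the lowest.

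Vars over Vars2 shifted most, with a log2 difference of 2.56, 2.53 and 2.53 in low glutamine libraries and 2.003, 1.84 and 1.84 in control libraries, a shift of 0.64. Vars2 itself measured 8.20, 8.36 and 8.18 RPKM in low glutamine and 8.30, 9.46 and 8.12 RPKM in control, with overlapping groups. Sars over Sars2 shifted the other way, with 2.52, 2.53 and 2.72 in low glutamine and 3.08, 3.03 and 3.37 in control, a shift of -0.57. Sars2 measured 5.49, 5.20 and 5.21 RPKM in low glutamine and 4.91, 5.27 and 4.14 RPKM in control. Cars over Cars2 shifted by 0.37 and Nars over Nars2 by -0.37, each without overlap. In the cysteine pair neither the gain of Cars, which did not pass, nor the fall of Cars2 was large alone. Lars over Lars2 shifted by -0.54 with overlapping groups.

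Hars and Hars2, for histidine, lie side by side on chromosome 18, with ends that overlap, at 36766528 to 36783205 and 36783202 to 36792562. Hars measured 24.3, 23.6 and 26.1 RPKM in low glutamine and 21.6, 21.0 and 20.5 RPKM in control, and Hars2 6.05, 5.97 and 6.26 RPKM in low glutamine and 7.08, 6.23 and 6.96 RPKM in control. Their difference shifted by 0.35 without overlap between groups. The pair shares sequence: 7.86% of the stretches of 31 bases in annotated Hars transcripts occur in transcripts of other genes, most of them in Hars2. Of the 36 members, 8 had over 5% of such shared stretches, the highest being Iars2 at 23.6%, mostly with its overlapping neighbour Rab3gap2, and Iars at 14.7%, mostly with Gm4849. Reads from such stretches can be assigned to either gene. Mars overlaps Ddit3, the gene of the stress factor CHOP, which stood at 5.93, 5.79 and 5.62 RPKM in low glutamine and 15.4, 14.9 and 14.2 RPKM in control. No source used here says whether counting used the strand.

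The summed RPKM of the 15 mitochondrial genes other than Lars2 was 124, 121 and 130 in low glutamine and 135, 136 and 125 in control libraries. The cytosolic sum divided by this sum was 7.45, 7.36 and 7.63 in low glutamine libraries and 6.79, 6.70 and 7.27 in control libraries. Every low glutamine ratio exceeded every control ratio, and control replicate 3 came closest. For single genes, the groups did not overlap for 70.2% of all tested genes. The ratio does not depend on the scaling of a library, but Lars2 was left out after seeing the data. With Lars2, the mitochondrial sum was 497, 586 and 332 RPKM in low glutamine and 281, 265 and 347 RPKM in control. The cytosolic sum divided by that sum gave overlapping groups.

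Genes around the synthetases were read from lists. Of 9 partners in tRNA handling, 1 (11.1%) rose and 3 (33.3%) fell (median -0.10), against 36.1% and 30.3% of all tested genes. Pstk and Sepsecs, which turn seryl-tRNA into selenocysteinyl-tRNA, fell by 0.42 and 0.53 on the log2 scale. Pstk averaged 13.1 RPKM in low glutamine and 17.9 RPKM in control, and Sepsecs 7.18 RPKM in low glutamine and 10.8 RPKM in control. Xpot, which exports tRNA from the nucleus, fell by 0.20 on the log2 scale. Dtd1, which removes D-amino acids from tRNA, rose by 0.26. Trnt1, which adds the CCA end of tRNA, passed as higher with the replicate block (0.14, adjusted p = 0.039) but not without it (0.057). The block fit sets aside each gene's own spread, so its p-values can be far too small, here and for Eef1a1 below. Of 5 cytosolic elongation factors, Eef2, Eef1b2 and Eef1g (60%) fell, with log2 fold changes of -0.25, -0.24 and -0.18. Eef1a1, which carries charged tRNA to the ribosome, averaged 5647 RPKM in low glutamine and 6619 RPKM in control (-0.23, adjusted p = 0.052) and passed as lower with the replicate block (adjusted p = 0.012). The median of the 5 elongation factors was -0.23 and turned to 0.058 with quantile normalization. That of the partners turned to 0.020 with a common sum and 0.042 with quantile normalization. Of the elongation factors 1 fell without low glutamine replicate 1 or without control replicate 2. In those fits 27.6% and 27.1% of all tested genes fell.

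In mitochondrial translation, the factors and the ribosomal proteins were counted apart. Of 12 factors, Gfm2, Mtfmt, Tufm and Qrsl1 fell by 0.47, 0.35, 0.27 and 0.18 on the log2 scale, and the other 8 did not pass (median -0.12). The 33.3% that fell is near the 30.3% of all tested genes. Without low glutamine replicate 3, 7 fell, where 33.1% of all tested genes did. Tufm is the mitochondrial elongation factor that carries charged tRNA, and Mtfmt formylates the methionyl-tRNA that starts translation. Mrrf, a ribosome recycling factor, passed as higher with the replicate block (0.13, adjusted p = 0.049) but not without it (0.15). The p-values of the block fit can be far too small. Of 78 mitochondrial ribosomal protein genes, 39 (50%) fell and 2 (2.56%) rose (median -0.15), against 30.3% and 36.1% of all tested genes, with Mrpl34 lower by 0.67 at 30.4 RPKM in low glutamine and 49.1 RPKM in control. The synthetases of mitochondria had a median of -0.05, against -0.15 in the ribosomal proteins they work beside, and the difference between the lists was not tested.

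Sensors and targets of the amino acid response were mostly higher. Of 13 tested genes, 9 (69.2%) rose and 3 (23.1%) fell, against 36.1% and 30.3% of all tested genes. Eif2ak4, the kinase GCN2 that binds uncharged tRNA, measured 5.23, 5.12 and 5.26 RPKM in low glutamine and 4.70, 4.16 and 4.42 RPKM in control, and its coactivator Gcn1l1 averaged 15.6 RPKM in low glutamine and 11.3 RPKM in control. Atf4 averaged 124 ± 8.45 RPKM in low glutamine and 95.6 ± 1.27 RPKM in control and rose by 0.37 (adjusted p = 1.8e-04). Phgdh and Psat1, enzymes of serine synthesis, rose by 0.51 and 0.41, while the serine enzyme Sars fell. Asns, which makes asparagine from aspartate and takes the amide nitrogen from glutamine, rose by 0.48, while the asparagine enzyme Nars fell. Chac1, Slc7a11 and Sesn2 rose by 1.65, 1.45 and 0.40. Trib3, Cebpg and Ddit3 fell, with log2 fold changes of -0.51, -0.65 and -1.23.

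**Figure D5:**
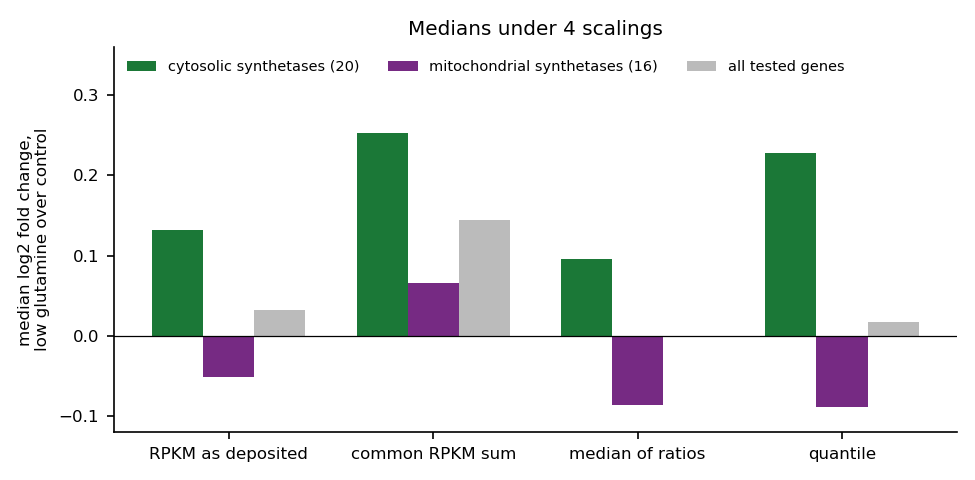
Median log2 fold change (low glutamine over control) of the 20 cytosolic genes, the 16 mitochondrial genes and all tested genes under 4 scalings of the libraries. The cytosolic median is above that of all genes in each, from 0.096 to 0.25, and the mitochondrial median below it, from -0.089 to 0.066.

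The way libraries are scaled set how many synthetases passed. Rescaling to a common RPKM sum moved the median of all tested genes to 0.14, and the medians of the cytosolic and mitochondrial genes to 0.25 and 0.066. Relative to the median of all genes, the cytosolic median was 0.10 higher as deposited and 0.11 higher with the common sum, 0.10 higher with median-of-ratios scaling and 0.21 higher with quantile normalization. The mitochondrial median differed from that of all genes by -0.084, -0.079, -0.086 and -0.11 under the same settings. Among the calls over all genes, 54.4% were higher as deposited, 69.1% with the common sum and 49.3% with median-of-ratios scaling. All 12 cytosolic and 5 mitochondrial genes past the test kept their direction in the 13 other settings of scaling, filter, pseudocount, block and library left out. Of the 12, Vars, Lars, Kars, Tars, Hars, Farsb, Yars, Gars, Sars and Qars passed in each of the 13, and of the 5, Ears2 did.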

How the data were processed

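The submitters' processing notes name HISAT2 2.0.4, CASAVA 1.8 and Partek, beside mm10 as genome build, without their roles. No source used here gives the annotation, the counting rule, the transcript lengths or the strand setting. The authors deposited RPKM values, 1 column per library and 24956 rows by gene symbol.

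Values were put on the log2(RPKM + 1) scale and the groups compared by limma 3.58.1 (R 4.3.3), with variances shrunk to a trend, over the 11082 genes that averaged 1 RPKM or more. The test was two-sided, with Benjamini-Hochberg adjustment over all tested genes and a threshold of 0.05. The fit was run on simulated data with independent noise and few changed genes. That setting differs from these data, where most tested genes passed, so it does not bear on the calls here. Fold changes are low glutamine over control, with a pseudocount of 1 that understates changes of low genes. Depth was estimated in genes with a single exon, as the read number at which low values came out whole within 0.02, which 61.7% to 67.5% of them did. Promoter windows and coordinates are RefSeq, GRCm38.p6. Of the members, 35 matched by symbol and 1 (Mars) by synonym. Python 3.11.15, pandas 2.3.3, numpy 2.4.6, scipy 1.17.1 and matplotlib 3.10.9 were used.

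The members, lists and alternatives were chosen with earlier results of these data known. Named in full are the members past the test with the 6 largest rises and 6 largest falls, those of the 4 pairs with the largest shift, and Qars, Gars and Kars. Other genes given with values, such as the Hars pair, were chosen after their values were seen.

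Replicate numbers occur in both groups. Same-numbered libraries deviated together (r = 0.15, 0.25 and 0.57 across genes), each above the limit of 0.1 for pairs, although low glutamine replicate 1 stood closer to control replicate 2 (r = 0.36). In the fit with the replicate block, limma gave every gene the spread of the trend in place of its own, so its p-values can be far too small. Robust variance shrinkage and the differences within same-numbered libraries were added after seeing the data.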

Additional observations from a re-analysis of the deposited data

How the results depend on the processing

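Depth limits the lowest genes, Pars2, Ears2 and Wars2, and 3 libraries a group limit all of them. With each library rescaled to a common RPKM sum, the median of all tested genes was 0.14, and 51.3% of them rose and 22.9% fell. In that setting 15 cytosolic genes rose (median 0.25), and 4 mitochondrial genes rose and 0 fell (median 0.066, a change of sign). Quantile normalization gave 15 cytosolic genes higher (median 0.23) and 7 mitochondrial genes lower, beside 36.7% of all tested genes higher and 32.8% lower. Median-of-ratios scaling gave 5 cytosolic and 7 mitochondrial genes lower, beside 35.6% of all tested genes lower and 34.7% higher. Without a filter on low values 1 mitochondrial gene rose and 1 fell, where 30.2% and 18.6% of all tested genes did. In alternatives chosen after seeing the data, 1 mitochondrial gene rose without Lars2, and 1 with robust variance shrinkage, where Lars2 lost its call and Cars gained one. Leaving out each library in turn, the cytosolic median ran from 0.072 (without low glutamine replicate 3) to 0.17. The number of mitochondrial genes that fell ran from 1 to 5, where 26.4% to 33.1% of all tested genes fell.

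No synthetase gene past the test changed direction. Among those that did not pass, the log2 fold change turned sign as follows. With the common sum it turned to 0.05 for Aars, 0.11 for Dars, 0.023 for Rars and 0.11 for Wars. In the same setting it turned to 0.073 for Fars2, 0.077 for Iars2, 0.015 for Tars2, 0.058 for Vars2 and 0.080 for Yars2. With quantile normalization it turned to 0.068 for Aars, 0.13 for Dars, 0.086 for Rars, 0.11 for Wars, 0.051 for Iars2, -0.085 for Nars2 and -0.041 for Pars2, and with median-of-ratios scaling to -0.0055 for Farsa and -0.016 for Nars2. Leaving out libraries, Dars ran from -0.033 to 0.026, Wars from -0.049 to 0.0051, Farsa from -0.0074 to 0.055, Fars2 from -0.092 to 0.022, Nars2 from -0.016 to 0.057, Vars2 from -0.094 to 0.0058 and Yars2 from -0.11 to 0.012. The Eprs/Ears2 shift turned to 0.099 with quantile normalization. The Eprs/Pars2 shift turned to 0.032 with a pseudocount of 5 and 0.29 with quantile normalization, and ran from -0.090 to 0.011 without single libraries. The list medians turned to 0.020 and 0.042 for the partners (common sum, quantile) and 0.058 for the elongation factors (quantile). The cause was not tested.

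The counts of the other lists moved by over 1.5 times as follows. The shares of all tested genes in each scaling are given above. With the common sum, 6 genes of the multisynthetase complex, 7 of class I, 3 partners, 1 elongation factor, 1 mitochondrial factor and 11 mitochondrial ribosomal proteins rose, and 25 mitochondrial ribosomal proteins fell. With quantile normalization, 7 of the complex, 8 of class I, 2 elongation factors and 6 mitochondrial ribosomal proteins rose, and 1 of class II fell. With median-of-ratios scaling, 2 of the complex, 2 of class I, 5 partners and 8 mitochondrial factors fell. Without a filter 1 elongation factor fell. Without low glutamine replicate 3, 2 of the complex and 2 of class I fell, where 33.1% of all tested genes did. Without control replicate 1 or with the block 2 partners rose, where 34.6% and 37.8% of all tested genes did. The 2 mitochondrial ribosomal proteins that rose ranged from 1 to 4 without single libraries, where 32.65% to 35.41% of all tested genes rose.

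With the replicate block, 10 cytosolic genes rose and 3 fell, and 2 mitochondrial genes rose and 3 fell. Of all tested genes 37.8% rose and 32.0% fell in this fit, whose p-values can be far too small. Cars, Trnt1, Eef1a1, Mrrf, Mrpl52, Mrpl57 and Mrps26 gained a call and Mrpl54 lost one (adjusted p = 0.055). The block changed no other call among the genes of these lists. In that fit the SD used for Lars2 was 0.0859, against 0.73 of its own, and its adjusted p of 3.0e-46 is not to be read as evidence.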
